A study of Solanum lycopersicum with 9 samples.

Results

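Tomato leaves given 30 mM p-hydroxybenzoic acid (PHBA) were compared with leaves given 15 mM, the step between the upper and the middle dose of a 3-dose series. The comparison uses 6 of the 9 leaf libraries of the study: 3 at 30 mM and 3 at 15 mM. The other 3, from untreated leaves, entered the same statistical model and their levels are given beside the results. All plants were Solanum lycopersicum of the cultivar Diana, about 1 month old when treated, and all treated leaves were taken after 2 days of PHBA. The labels describe RNA of each treatment as mixed in equal amounts and do not tie the libraries of a dose to different plants. Spread between libraries, and with it every p-value, may thus be technical.

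PHBA is a simple phenolic acid that plant roots and decaying residues release into soil, and it is studied as an allelochemical, a compound by which plants hold back the growth of other plants or of their own successors. Plant cells usually dispose of foreign phenolics in steps: oxidases and reductases alter the molecule, glycosyltransferases or glutathione S-transferases attach a sugar or glutathione, and membrane transporters move the product into the vacuole or out of the cell. Leaves under chemical or biotic stress commonly switch on WRKY and NAC transcription factors, calcium sensors and defence proteins while they lower transcripts for the light-harvesting apparatus.

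The values are FPKM (fragments adjusted for sequence length and library size) of sequences assembled from the reads and named by their assembly identifiers. The deposited annotation gives protein families (Pfam) and KEGG orthologs and no tomato gene names, so each sequence is described by its Pfam family. Pieces or near-identical copies of 1 gene can stand as separate sequences, so a count of sequences overstates the genes behind it. FPKM hold no read counts, so depth is unknown and no counting interval is given. Summed FPKM were 366432 to 383347 in the 30 mM libraries, 353902 to 364475 at 15 mM and 349076 to 366748 in untreated leaves. The 4 most abundant sequences took 33.5 to 42.4% of that sum at 30 mM, 26.9 to 44.6% at 15 mM and 39.4 to 45% in untreated leaves.

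The first principal component of log2(FPKM + 1), with 28.3% of the variance, placed the 30 mM libraries at 59.0 to 87.0 and the 15 mM libraries at -34.3 to 0.396. The untreated libraries lay at -60.7 to -44.5. Replicate 2 was the 15 mM library closest to the untreated ones, at -34.3. Rank correlations across sequences were 0.603 to 0.631 between a 30 mM and a 15 mM library, 0.663 to 0.701 among the 30 mM libraries and 0.646 to 0.675 among the 15 mM libraries, as a description of libraries that share an assembly.

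Of 44203 sequences that reached 0.5 FPKM in 3 or more libraries, 1371 (3.1%) differed between 30 and 15 mM by limma's moderated test on log2(FPKM + 1), two-sided, with a Benjamini-Hochberg adjusted p under 0.05. At 30 mM 1066 were higher (2.41% of those tested) and 305 lower (0.69%). Differences of at least 1 on the log2 scale made up 711 of the higher and 165 of the lower calls. Among the 13634 annotated sequences 813 were called (5.96%), 656 of them higher (4.81%) and 157 lower (1.15%). Among the 30569 sequences outside the annotation 558 were called (1.83%), of which 410 were higher (1.34%) and 148 lower (0.484%). Of the rises, 160 (55 of them annotated) reached 0.5 FPKM in the 3 libraries at 30 mM and in none of the other 6, and 33 of the falls did so in the 3 libraries at 15 mM alone. Such sequences passed the filter only through the dose at which they were high, so that a difference was built into their selection. Counts of rises in the lists below include such members, for example among WRKY factors, cytochrome P450 sequences, class III peroxidases and pathogenesis-related proteins. In all 1371 calls the 3 libraries of one dose lay wholly above those of the other, as they did for 19.5% of all sequences tested.

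The split between higher and lower calls moved with the scaling of the libraries. As deposited, 77.8% of the calls were higher at 30 mM. Rescaling by median of ratios gave 58.1% (1246 higher and 899 lower), and quantile normalization gave 49.5% (1107 higher and 1129 lower). Leaving the 4 most abundant sequences out of each library's sum gave 72.3% (1787 higher and 685 lower). Over all sequences the median log2 fold was 0.048 as deposited and -0.011 after quantile normalization. The 1231 sequences with a KEGG ortholog had 77 rises and 7 falls as deposited, and 79 and 65 after quantile normalization. For all annotated sequences the median was 0.113 as deposited and 0.012 after quantile normalization.

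Abundant sequences were called more often. Of sequences below 1 FPKM on average over the 6 libraries 0.707% were called, against 3.78% between 1 and 5 FPKM, 10.7% between 5 and 50 FPKM and 11.7% from 50 FPKM up. In the most abundant of these classes the calls were split into 18 higher and 17 lower.

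**Figure D1:**
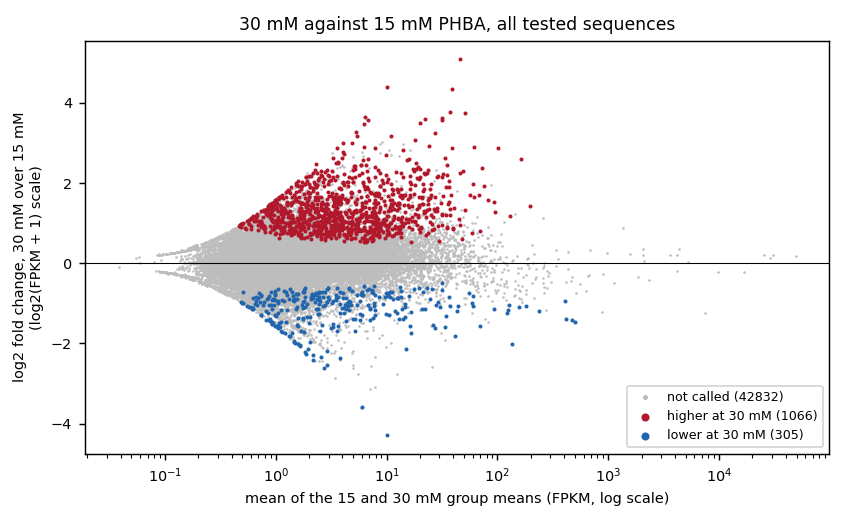
Log2 fold change of 30 mM over 15 mM on the log2(FPKM + 1) scale against the mean level in FPKM (log axis), 1 point per tested sequence, with called sequences in red (higher at 30 mM) or blue (lower). The 1066 red points reach larger changes than the 305 blue points, and few sequences below 1 FPKM are called.

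The call count moved when single libraries were left out, which also leaves fewer libraries to estimate the spread. Without 30 mM replicate 1 or 3 the count was 607 or 576, and without 15 mM replicate 1, 2 or 3 it was 518, 820 or 875. Without untreated replicate 1, 2 or 3, which are not in the contrast, it was 897, 970 or 967. Without 30 mM replicate 2 it was 1572. That library had the lowest of the 3 values at 30 mM in 641 of the 1066 higher calls and the highest in 163 of the 305 lower calls. At 15 mM, replicate 2 was lowest in 651 of the higher calls.

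The 15 largest rises among annotated sequences averaging at least 5 FPKM had log2 fold changes of 2.87 to 5.08. They were led by enzymes that modify small molecules and by WRKY factors. The largest was T15_3_TRINITY_DN17633_c0_g2, an aldo/keto reductase of the family that reduces reactive carbonyl compounds, with 137, 44.04 and 90.8 FPKM at 30 mM, against 1.66, 0.72 and 2.23 FPKM at 15 mM (log2 fold 5.08 ± 0.38 SE, adjusted p = 0.00132). In untreated leaves it had 0.51, 0.28 and 0.4 FPKM. Every 30 mM library was thus far above every 15 mM library, and replicate 2 was the lowest at both doses.

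Next came the WRKY factor T15_1_TRINITY_DN8139_c0_g1, with 97.1, 46.6 and 80.3 FPKM at 30 mM, against 2.41, 1.14 and 5.13 FPKM at 15 mM (log2 fold 4.35 ± 0.38 SE, adjusted p = 0.00184). T15_2_TRINITY_DN44840_c0_g1, an IBR half-RING protein of a ubiquitin ligase type, had 88.7, 42.8 and 81.3 FPKM at 30 mM, against 3.29, 2.55 and 7.26 FPKM at 15 mM (log2 fold 3.78 ± 0.35 SE, adjusted p = 0.00218). In both sequences replicate 2 was the lowest library at each dose and the groups stayed far apart. A UDP-glycosyltransferase, T30_3_TRINITY_DN5513_c0_g2, which belongs to the enzymes that attach sugars to phenolics and hormones, had 107, 51.1 and 131 FPKM at 30 mM, against 8.02, 2.58 and 8.55 FPKM at 15 mM (log2 fold 3.74 ± 0.44 SE, adjusted p = 0.00447). The glutathione S-transferase T15_1_TRINITY_DN13646_c1_g1 had 71.97, 34.2 and 71.3 FPKM at 30 mM, against 2.91, 3.17 and 5.23 FPKM at 15 mM (log2 fold 3.61 ± 0.36 SE, adjusted p = 0.0025). Its 15 mM libraries were close to the untreated ones, which had 1.68, 2.40 and 4.58 FPKM.

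A second WRKY factor, T15_2_TRINITY_DN31591_c0_g1, was even across libraries, with 39.8, 36.2 and 49.2 FPKM at 30 mM, against 3.79, 2.05 and 1.93 FPKM at 15 mM (log2 fold 3.60 ± 0.23 SE, adjusted p = 0.000665). The cytochrome P450 T15_1_TRINITY_DN32985_c0_g1 had 33.4, 49.9 and 29.6 FPKM at 30 mM, against 2.69, 1.45 and 3.19 FPKM at 15 mM (log2 fold 3.49 ± 0.25 SE, adjusted p = 0.000999), with replicate 2 the highest at 30 mM and the lowest at 15 mM. The leucine-type aminopeptidase T15_3_TRINITY_DN3782_c0_g2 had 141, 18.2 and 22.4 FPKM at 30 mM, against 2.05, 2.52 and 2.61 FPKM at 15 mM (log2 fold 3.56 ± 0.64 SE, adjusted p = 0.0223). Its replicate 1 at 30 mM stood far above the others, and the call was lost without 15 mM replicate 1, 2 or 3 (where the adjusted p was 0.0635 to 0.0798).

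The remaining 7 of the 15 were an AAA ATPase, a Kunitz-type protease inhibitor, an alternative oxidase, a mitochondrial carrier, a second UDP-glycosyltransferase, a GNAT acetyltransferase and a zinc-binding dehydrogenase. The AAA ATPase T30_1_TRINITY_DN49685_c0_g1 had 54.9, 31.1 and 66.3 FPKM at 30 mM, against 4.82, 2.98 and 5.14 FPKM at 15 mM (log2 fold 3.24 ± 0.29 SE, adjusted p = 0.00184). The acetyltransferase T30_1_TRINITY_DN309_c0_g1 was the lowest of them in level, with 14.1, 6.93 and 14.3 FPKM at 30 mM, against 0.84, 0.16 and 1.12 FPKM at 15 mM (log2 fold 2.89 ± 0.30 SE, adjusted p = 0.00283). The dehydrogenase TCK_2_TRINITY_DN1334_c0_g2, of the medium-chain alcohol dehydrogenase type, was the highest, with 222, 106 and 207 FPKM at 30 mM, against 30.6, 9.06 and 39.1 FPKM at 15 mM (log2 fold 2.87 ± 0.49 SE, adjusted p = 0.0192). It had 2.0, 1.69 and 2.89 FPKM in untreated leaves, so its 15 mM libraries lay between the other doses. Its call was lost without 30 mM replicate 1 or 3 (where the adjusted p was 0.0723 to 0.0745).

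All 15 had low levels in untreated leaves, with means of 0.353 to 3.52 FPKM. Against untreated leaves the 15 mM log2 differences were 0.23 to 2.89 and none of the 15 was called (lowest adjusted p = 0.0893), while all 15 were called at 30 mM against untreated. These comparisons share libraries with the one described here and are given side by side only. The calls of 12 of the 15 held with any 1 of the 9 libraries left out.

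**Figure D2:**
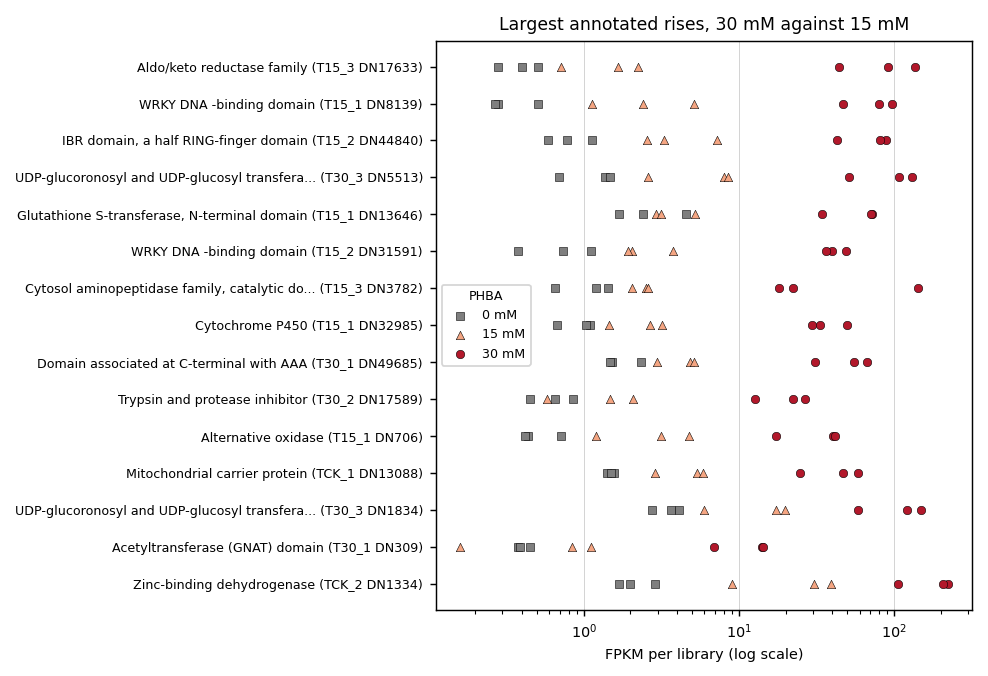
FPKM in each library (log axis) of the 15 annotated sequences with the largest rises, with squares for untreated, triangles for 15 mM and circles for 30 mM. In every row, as the choice of sequences required, the 30 mM circles lie to the right of the 15 mM triangles. The untreated means are 0.353 to 3.52 FPKM.

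The 15 largest falls were smaller, with log2 fold changes of -2.02 to -1.37, and included 3 antenna proteins and a GUN4-like sequence, which are described with photosynthesis. The Thi4 sequence T30_1_TRINITY_DN15030_c0_g1, of the family that makes the thiazole part of thiamine in the chloroplast, had 47.6, 72.7 and 36.5 FPKM at 30 mM, against 208, 139 and 303 FPKM at 15 mM (log2 fold -2.02 ± 0.32 SE, adjusted p = 0.0143). The carotenoid oxygenase family member T15_3_TRINITY_DN2708_c0_g1 (Pfam retinal pigment epithelial membrane protein) had 15.1, 27.1 and 12.6 FPKM at 30 mM, against 60.3, 56.03 and 76.1 FPKM at 15 mM (log2 fold -1.82 ± 0.26 SE, adjusted p = 0.00992). In both, replicate 2 was the highest library at 30 mM and the lowest at 15 mM. Absence of overlap between the doses was a condition for entry to this list. The Thi4 call was lost without 30 mM replicate 1 or 3 or 15 mM replicate 1 (where the adjusted p was 0.0524 to 0.0575).

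A papain-type protease with a granulin domain, T30_3_TRINITY_DN16498_c0_g2, had 5.33, 12.8 and 4.26 FPKM at 30 mM, against 21.5, 22.2 and 32.8 FPKM at 15 mM (log2 fold -1.75 ± 0.34 SE, adjusted p = 0.0302). The homeodomain leucine-zipper factor T30_3_TRINITY_DN5207_c0_g2 had 11.8, 21.9 and 7.35 FPKM at 30 mM, against 37.1, 33.1 and 52.4 FPKM at 15 mM (log2 fold -1.61 ± 0.32 SE, adjusted p = 0.0347). Replicate 2 again stood highest at 30 mM in both. The protease's call was lost without 30 mM replicate 1 or 3, 15 mM replicate 1, 2 or 3 or untreated replicate 1 or 2 (where the adjusted p was 0.0515 to 0.106), and that of the homeodomain factor without 30 mM replicate 1 or 3, 15 mM replicate 1, 2 or 3 or untreated replicate 1, 2 or 3 (where the adjusted p was 0.0607 to 0.111). A meristem regulator of the FAF family, TCK_1_TRINITY_DN67493_c0_g1, members of which limit shoot meristem size in Arabidopsis, was even across libraries, with 2.56, 2.27 and 3.22 FPKM at 30 mM, against 10.1, 7.46 and 8.85 FPKM at 15 mM (log2 fold -1.41 ± 0.15 SE, adjusted p = 0.00332). The B-box zinc finger TCK_3_TRINITY_DN491_c0_g1, of a family active in light signalling, had 7.49, 9.31 and 5.55 FPKM at 30 mM, against 20.1, 18.01 and 24.1 FPKM at 15 mM (log2 fold -1.38 ± 0.19 SE, adjusted p = 0.00895).

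A LURP-one-related sequence, T30_3_TRINITY_DN13778_c0_g1, was the 1 member of the 15 not called at 30 mM against untreated leaves. It had 2.45, 4.80 and 3.07 FPKM at 30 mM, against 10.5, 7.57 and 14.7 FPKM at 15 mM (log2 fold -1.41 ± 0.25 SE, adjusted p = 0.0202), and 5.88, 5.88 and 6.68 FPKM in untreated leaves, so its level was highest at 15 mM. The call was lost without 30 mM replicate 1 or 3 or 15 mM replicate 1 or 3 (where the adjusted p was 0.0505 to 0.0731). The list also held a RING finger protein, a 2-oxoglutarate iron-dependent dioxygenase and an EamA-type transporter, each between 1.62 and 8.18 FPKM in the 30 mM libraries. None of the 15 falls was called at 15 mM against untreated leaves (log2 differences -0.89 to 0.69, lowest adjusted p = 0.156), and 14 were called at 30 mM against untreated. With any 1 library left out, 5 of the 15 calls held throughout.

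**Figure D3:**
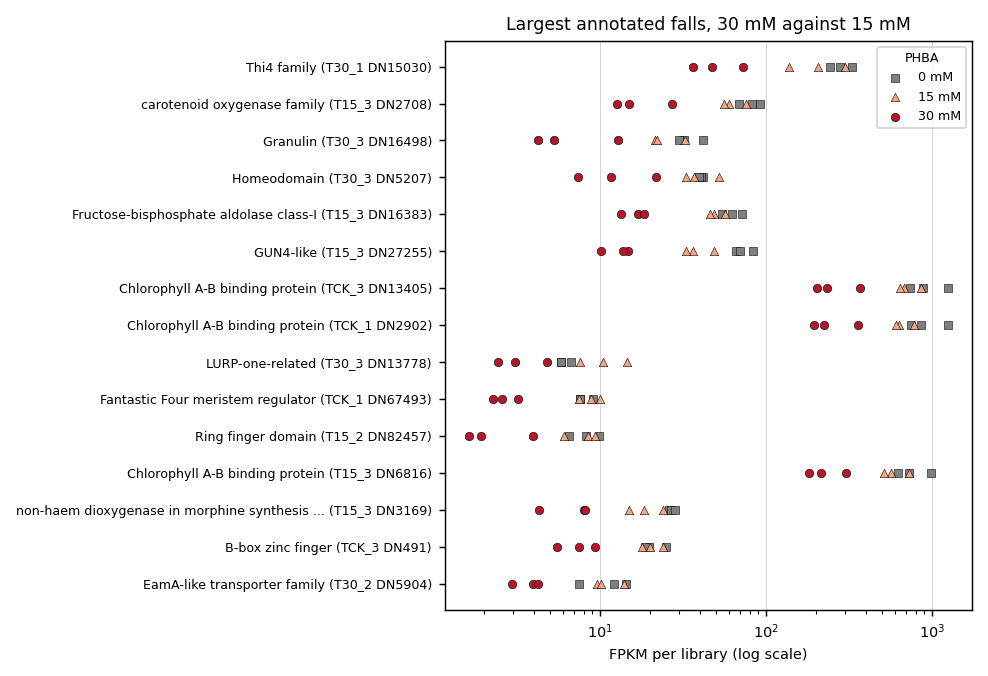
FPKM in each library (log axis) of the 15 annotated sequences with the largest falls, with the symbols for dose as squares (untreated), triangles (15 mM) and circles (30 mM). The 30 mM circles lie to the left of the 15 mM triangles in every row, as the choice of sequences required. In most rows the triangles and the squares lie close together.

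Calls among photosynthesis sequences were mostly falls at 30 mM. Of 24 light-harvesting antenna sequences, which bind the chlorophyll that feeds light energy to the photosystems, 9 fell and 0 rose, against a background of 1.15% lower among annotated sequences. Their median log2 fold change was -1.06, where that of all annotated sequences was 0.113. The count of falls was 14 after quantile normalization, 18 with median-of-ratios scaling and 11 with array weights. It was 6 with the replicate number as a block and 2 in a fit of the 6 PHBA libraries alone. With 1 library left out it was 0 (without 15 mM replicate 1) to 15 (without 30 mM replicate 2). Summed over the list, the antenna sequences had 1820 to 2910 FPKM in the 30 mM libraries, against 4160 to 5680 FPKM at 15 mM, with no overlap. The sum was 4900 to 7560 FPKM in untreated leaves. In leaf RNA, fewer cells of a type and less RNA per cell cannot be told apart.

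The antenna sequence with the largest fall, TCK_3_TRINITY_DN13405_c0_g1, had 236, 368 and 204 FPKM at 30 mM, against 679, 647 and 866 FPKM at 15 mM (log2 fold -1.47 ± 0.29 SE, adjusted p = 0.0302). Nearly the same values were found for TCK_1_TRINITY_DN2902_c0_g1, with 226, 359.6 and 195 FPKM at 30 mM, against 632, 614 and 781 FPKM at 15 mM (log2 fold -1.41 ± 0.28 SE, adjusted p = 0.034), and reads of such near-identical family members could be split between them. The antenna sequence T15_3_TRINITY_DN6816_c0_g1 had 214, 307 and 183 FPKM at 30 mM, against 571, 516 and 732 FPKM at 15 mM (log2 fold -1.39 ± 0.26 SE, adjusted p = 0.0273). Replicate 2 was the highest 30 mM library and the lowest 15 mM library in all 3, which is the pattern of the Thi4 sequence. Leaving out any 1 library at 15 mM, replicate 1 or 3 at 30 mM or untreated replicate 3 ended all 3 calls, and untreated replicate 1 ended the second as well. All 3 calls were also lost with the replicate number as a block and in the fit of the 6 PHBA libraries alone. With no filter they were lost too, at adjusted p of 0.394 to 0.487.

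Of 30 photosystem subunit sequences 3 fell and 0 rose, with a median of -0.63. After quantile normalization 14 fell, and the count was 0 to 7 (without 30 mM replicate 2) with 1 library left out. The photosystem I subunit VI sequence T15_1_TRINITY_DN532_c0_g2 had 22.8, 36.6 and 19.8 FPKM at 30 mM, against 58.3, 55.5 and 66.5 FPKM at 15 mM (log2 fold -1.20 ± 0.22 SE, adjusted p = 0.0248), and the call was lost without 30 mM replicate 1 or 3 or 15 mM replicate 1, 2 or 3 (where the adjusted p was 0.0576 to 0.0888). The other calls were photosystem I subunit III, TCK_2_TRINITY_DN169_c0_g1 (log2 fold -1.04 ± 0.23 SE, adjusted p = 0.0481, and 0.0732 to 0.15 in the fits without 30 mM replicate 1 or 3, 15 mM replicate 1, 2 or 3 or untreated replicate 1, 2 or 3 that ended the call), and the photosystem II protein PsbY. The summed list had 2010 to 2670 FPKM at 30 mM, against 3070 to 4350 FPKM at 15 mM, and 3180 to 4090 FPKM in untreated leaves.

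Of 25 sequences for the Calvin cycle and triose phosphate enzymes, 2 fell and 0 rose (median -0.30), and 5 fell after quantile normalization. Falls numbered 1 to 2 with 1 library left out. The fructose-bisphosphate aldolase T15_3_TRINITY_DN16383_c0_g1, which joins triose phosphates in carbon fixation, had 17.1, 18.5 and 13.4 FPKM at 30 mM, against 49.1, 46.4 and 56.6 FPKM at 15 mM (log2 fold -1.59 ± 0.16 SE, adjusted p = 0.00281). Its libraries were even within each dose, and the call held with any 1 library left out. The triosephosphate isomerase T15_2_TRINITY_DN695_c0_g2 had 6.58, 6.82 and 4.27 FPKM at 30 mM, against 13.3, 11.03 and 13.7 FPKM at 15 mM (log2 fold -1.01 ± 0.18 SE, adjusted p = 0.0223), and this call did not hold without 30 mM replicate 1 or 3 or 15 mM replicate 1 or 3 (where the adjusted p was 0.0509 to 0.0872).

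Among 14 chlorophyll synthesis sequences 1 fell and 1 rose. The one that fell was a GUN4-like sequence, T15_3_TRINITY_DN27255_c0_g1, whose product promotes magnesium insertion into the pigment precursor, with 10.2, 14.8 and 13.8 FPKM at 30 mM, against 36.3, 49.0 and 33.2 FPKM at 15 mM (log2 fold -1.54 ± 0.19 SE, adjusted p = 0.00527). It was highest in untreated leaves, at 66.2, 83.6 and 70.3 FPKM. The one that rose was a glutamyl-tRNA reductase sequence, T30_1_TRINITY_DN11271_c0_g1, the first committed enzyme of the pathway, with 5.62 FPKM at 30 mM and 2.27 FPKM at 15 mM (means of 3 libraries, log2 fold change 1.01, adjusted p = 0.0362). The list had 0 rises when any 1 library at 15 or 30 mM, or untreated replicate 1, was left out. After quantile normalization the list had 5 falls and 0 rises. None of 12 chlorophyll breakdown and senescence sequences passed the test. The Staygreen sequence T15_1_TRINITY_DN12869_c0_g1 came closest, with 16.2, 11.4 and 14.8 FPKM at 30 mM, against 7.36, 3.66 and 10.4 FPKM at 15 mM (log2 fold 0.97 ± 0.29 SE, adjusted p = 0.128).

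Calls among WRKY and NAC transcription factors were all rises as deposited. Those among AP2/ERF factors were mostly rises, near the 80.7% of all annotated calls that were higher. Of 40 WRKY sequences, regulators of defence genes that bind W-box elements, 17 rose and 0 fell, where 4.81% of annotated sequences rose. Their median log2 fold change was 0.80, and the called members ranged from 0.98 to 4.35. The count of rises was 15 after quantile normalization, with 1 fall, and 13 (without 30 mM replicate 3 or 15 mM replicate 1) to 17 (without 30 mM replicate 2) with 1 library left out. The VQ motif family, whose members bind WRKY proteins, had 5 rises and 0 falls among 16 sequences.

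NAC factors, which include regulators of senescence and stress responses, had 7 rises (21.9%) and 0 falls among 32 sequences (median 0.43). After quantile normalization there were 7 rises and 2 falls (median 0.26). Rises numbered 10 with array weights, 3 with the replicate number as a block and 0 in a fit of the 6 PHBA libraries alone. With 1 library left out they numbered 1 (without 30 mM replicate 1 or 3) to 8 (without 30 mM replicate 2). TCK_2_TRINITY_DN9048_c0_g1 had 83.3, 62.8 and 97.8 FPKM at 30 mM, against 16.9, 8.20 and 25.4 FPKM at 15 mM (log2 fold 2.31 ± 0.36 SE, adjusted p = 0.0134). In untreated leaves it had 3.08, 1.54 and 2.21 FPKM, so its 15 mM libraries lay between the other doses. The call was lost without 30 mM replicate 1 or 3 (where the adjusted p was 0.0533 to 0.0556). T15_3_TRINITY_DN1322_c0_g1 had 52.7, 45.05 and 36.97 FPKM at 30 mM, against 19.01, 14.4 and 22.5 FPKM at 15 mM (log2 fold 1.23 ± 0.18 SE, adjusted p = 0.0101), and its call held with any 1 library left out.

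Of 66 AP2/ERF sequences, a family that includes ethylene and cold response factors, 8 rose and 2 fell as deposited, and 8 and 5 after quantile normalization. As deposited the shares were 12.1% higher and 3.03% lower, against 4.81% and 1.15% of annotated sequences. Rises numbered 5 (without 30 mM replicate 3 or 15 mM replicate 1) to 9 (without 30 mM replicate 2 or 15 mM replicate 3) with 1 library left out. T30_3_TRINITY_DN32152_c0_g1 had 10.2, 9.57 and 12.4 FPKM at 30 mM, against 0.96, 1.33 and 1.10 FPKM at 15 mM (log2 fold 2.46 ± 0.15 SE, adjusted p = 0.000665), with replicates close together at both doses. It was nearly silent in untreated leaves, at 0.04, 0.13 and 0.27 FPKM. Among 58 bHLH sequences 1 rose and 5 fell as deposited, 0 rose and 11 fell after quantile normalization, and 0 and 10 with median-of-ratios scaling. Falls numbered 2 (without 30 mM replicate 1 or 3 or 15 mM replicate 1) to 8 (without 30 mM replicate 2) with 1 library left out. The bHLH sequence that rose, T30_2_TRINITY_DN12906_c0_g1, had 7.39, 6.46 and 22.1 FPKM at 30 mM, against 1.24, 2.89 and 1.35 FPKM at 15 mM (log2 fold 2.05 ± 0.42 SE, adjusted p = 0.0367, and 0.0516 to 0.121 in the fits without 30 mM replicate 1 or 3, 15 mM replicate 1, 2 or 3 or untreated replicate 1, 2 or 3 that ended the call), with replicate 3 far above the other 30 mM libraries. T15_2_TRINITY_DN9423_c0_g1 fell, with 7.88, 8.55 and 7.87 FPKM at 30 mM, against 14.8, 12.1 and 15.3 FPKM at 15 mM (log2 fold -0.72 ± 0.12 SE, adjusted p = 0.0169, and 0.0599 to 0.0809 in the fits without 30 mM replicate 1 or 3 or 15 mM replicate 1 that ended the call). Its untreated values, 9.19, 9.43 and 10.3 FPKM, were near those at 30 mM.

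Among 103 MYB sequences 4 rose and 2 fell, a direction that turned with the scaling: quantile normalization gave 2 rises and 14 falls, and median-of-ratios scaling 2 and 10. The counts were also small without single libraries, with rises at 0 to 4 (without 30 mM replicate 2) with 1 library left out. T15_3_TRINITY_DN57808_c0_g1 had 18.6, 6.68 and 16.5 FPKM at 30 mM, against 3.08, 2.72 and 3.71 FPKM at 15 mM (log2 fold 1.74 ± 0.33 SE, adjusted p = 0.0266, and 0.0612 to 0.0923 in the fits without 30 mM replicate 1 or 3 or 15 mM replicate 1, 2 or 3 that ended the call). Among 34 bZIP sequences 1 rose and 1 fell.

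Enzymes and transporters of detoxification contained many of the largest rises. Of 77 UDP-glycosyltransferases 17 rose and 5 fell (median 0.15). After quantile normalization there were 18 rises and 10 falls, and rises numbered 7 (without 30 mM replicate 1 or 3) to 21 (without 30 mM replicate 2) with 1 library left out. The second largest rise, T30_3_TRINITY_DN1834_c0_g1, had 148, 58.3 and 121 FPKM at 30 mM, against 17.2, 5.94 and 19.8 FPKM at 15 mM (log2 fold 2.89 ± 0.45 SE, adjusted p = 0.0131), and the call was lost without 30 mM replicate 1 or 3 (where the adjusted p was 0.0519 to 0.0551). Members also moved the other way: TCK_3_TRINITY_DN45159_c0_g1 had 5.10, 6.57 and 5.81 FPKM at 30 mM, against 11.4, 9.54 and 12.8 FPKM at 15 mM (log2 fold -0.84 ± 0.15 SE, adjusted p = 0.0198, and 0.0565 to 0.0809 in the fits without 30 mM replicate 1 or 3 or 15 mM replicate 1 or 3 that ended the call).

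Of 43 glutathione S-transferases 8 rose and 0 fell, with a median of 0.47 and called members from 0.81 to 3.61. The count was 4 (without 30 mM replicate 1 or 15 mM replicate 1 or 2) to 10 (without 30 mM replicate 2) with 1 library left out. Beside the member named above, T15_3_TRINITY_DN10304_c0_g1 had 13.6, 7.29 and 12.6 FPKM at 30 mM, against 1.25, 0.52 and 1.27 FPKM at 15 mM (log2 fold 2.58 ± 0.25 SE, adjusted p = 0.00231). In untreated leaves it was close to 0, at 0, 0.12 and 0.12 FPKM.

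Cytochrome P450 sequences, oxidases of hormones and secondary metabolites, were divided. Of 111, 15 rose and 9 fell as deposited, 15 against 14 with median-of-ratios scaling, and 14 against 16 with quantile normalization, so the balance turned with the scaling. With 1 library left out, rises numbered 9 (without 15 mM replicate 1) to 17 (without 30 mM replicate 2) and falls 4 (without 30 mM replicate 3 or 15 mM replicate 1) to 8 (without 30 mM replicate 2). TCK_2_TRINITY_DN40832_c0_g1 rose, with 38.9, 21.3 and 44.6 FPKM at 30 mM, against 8.30, 7.68 and 7.45 FPKM at 15 mM (log2 fold 1.97 ± 0.25 SE, adjusted p = 0.00572). T15_3_TRINITY_DN2260_c0_g3 fell, with 4.21, 5.56 and 4.10 FPKM at 30 mM, against 11.4, 9.69 and 11.3 FPKM at 15 mM (log2 fold -1.08 ± 0.13 SE, adjusted p = 0.00532). Both calls held with any 1 library left out, and the groups were well apart in each.

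Of 75 ABC transporters, pumps driven by ATP, 8 rose and 0 fell as deposited, and 9 rose and 4 fell after quantile normalization. Rises numbered 5 (without 30 mM replicate 1 or 3 or 15 mM replicate 1) to 8 (without 30 mM replicate 2) with 1 library left out. TCK_1_TRINITY_DN4880_c0_g1 had 71.4, 40.2 and 64.8 FPKM at 30 mM, against 10.2, 4.39 and 12.8 FPKM at 15 mM (log2 fold 2.63 ± 0.36 SE, adjusted p = 0.00785). TCK_2_TRINITY_DN8645_c0_g1, of the ABC-2 type, had 43.1, 27.3 and 26.5 FPKM at 30 mM, against 4.68, 3.65 and 6.27 FPKM at 15 mM (log2 fold 2.49 ± 0.22 SE, adjusted p = 0.00184). Both had low levels in untreated leaves, at 1.64, 0.97 and 2.03 FPKM for the first. Among 36 MATE transporters, which export organic anions and xenobiotics, 5 rose and 1 fell, and rises numbered 1 (without 30 mM replicate 1 or 15 mM replicate 1) to 6 (without 30 mM replicate 2) with 1 library left out. These were 13.9% higher and 2.78% lower, against 4.81% and 1.15% of annotated sequences.

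Of 16 aldo/keto reductases 4 rose and 0 fell as deposited, and 4 rose and 3 fell after quantile normalization. Rises numbered 1 (without 30 mM replicate 3 or 15 mM replicate 1 or 2) to 5 (without 30 mM replicate 2) with 1 library left out. T15_1_TRINITY_DN64895_c0_g1 had 14.6, 4.28 and 8.66 FPKM at 30 mM, against 0.72, 0.9 and 1.82 FPKM at 15 mM (log2 fold 2.14 ± 0.36 SE, adjusted p = 0.0168), and this call did not hold without 30 mM replicate 3 or 15 mM replicate 1 or 2 (where the adjusted p was 0.0575 to 0.0673). Of 44 alcohol and aldehyde dehydrogenases 3 rose and 0 fell, and 3 and 2 after quantile normalization. The rises as deposited were 6.82% of those tested, near the 4.81% of annotated sequences. TCK_2_TRINITY_DN53681_c0_g1 had 44.5, 20.9 and 47.3 FPKM at 30 mM, against 7.67, 4.84 and 8.46 FPKM at 15 mM (log2 fold 2.22 ± 0.30 SE, adjusted p = 0.00807), with replicate 2 below replicates 1 and 3 at both doses.

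Alternative oxidases, which pass electrons to oxygen in mitochondria without pumping protons, had 2 rises among 4 sequences. T15_1_TRINITY_DN706_c0_g2 had 40.2, 17.3 and 41.5 FPKM at 30 mM, against 3.17, 1.21 and 4.76 FPKM at 15 mM (log2 fold 3.08 ± 0.40 SE, adjusted p = 0.00651). T15_2_TRINITY_DN4579_c0_g1 had higher levels at 15 mM than the first sequence did, and it rose too, with 36.4, 29.2 and 40.2 FPKM at 30 mM, against 15.2, 9.96 and 20.5 FPKM at 15 mM (log2 fold 1.20 ± 0.24 SE, adjusted p = 0.0319), and its call was lost without 30 mM replicate 1 or 3, 15 mM replicate 1 or 2 or untreated replicate 1, 2 or 3 (where the adjusted p was 0.0528 to 0.104). Mitochondrial carriers, which move metabolites across the inner membrane, had 7 rises and 0 falls among 49 sequences, and rises numbered 2 (without 30 mM replicate 1 or 3 or 15 mM replicate 1) to 6 with 1 library left out. TCK_1_TRINITY_DN13088_c0_g1 had 46.7, 24.6 and 58.4 FPKM at 30 mM, against 5.38, 2.89 and 5.85 FPKM at 15 mM (log2 fold 2.91 ± 0.31 SE, adjusted p = 0.00332).

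Among antioxidant enzymes calls were few. Of 88, 2 rose and 0 fell as deposited, and 4 rose and 3 fell after quantile normalization. Rises numbered 1 to 7 (without 30 mM replicate 2) with 1 library left out. The glutaredoxin T15_3_TRINITY_DN58183_c0_g1 had 64.4, 54.8 and 57.1 FPKM at 30 mM, against 26.3, 17.0 and 24.1 FPKM at 15 mM (log2 fold 1.37 ± 0.17 SE, adjusted p = 0.00532), and its call held with any 1 library left out. The glutathione peroxidase T15_2_TRINITY_DN2126_c0_g1 had 38.2, 27.1 and 28.9 FPKM at 30 mM, against 12.9, 7.86 and 17.6 FPKM at 15 mM (log2 fold 1.28 ± 0.26 SE, adjusted p = 0.0341, and 0.0539 to 0.115 in the fits without 30 mM replicate 1 or 3, 15 mM replicate 1 or 2 or untreated replicate 1, 2 or 3 that ended the call). None of 51 thioredoxin, 7 superoxide dismutase and 2 catalase sequences was called.

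Class III peroxidases, secreted haem enzymes that oxidise phenolics and cross-link cell walls, had the highest median of the 348 Pfam families with at least 10 tested sequences. Of 28, 8 rose and 0 fell, with a median of 0.974. Of the 8, 3 averaged at least 5 FPKM over the 6 libraries. Another of the 8, T30_1_TRINITY_DN8266_c0_g1, passed the filter through the 30 mM libraries alone. The count of rises was 3 (without 15 mM replicate 1 or 2) to 9 (without 30 mM replicate 2) with 1 library left out. T30_1_TRINITY_DN5643_c0_g2 had 15.96, 15.3 and 8.88 FPKM at 30 mM, against 4.33, 2.31 and 3.83 FPKM at 15 mM (log2 fold 1.67 ± 0.25 SE, adjusted p = 0.011). T30_1_TRINITY_DN2865_c0_g1 had 18.2, 5.57 and 5.80 FPKM at 30 mM, against 2.09, 1.95 and 2.09 FPKM at 15 mM (log2 fold 1.64 ± 0.36 SE, adjusted p = 0.0475), with replicate 1 alone well above the other 30 mM libraries, and the call was lost without 30 mM replicate 3, 15 mM replicate 1, 2 or 3 or untreated replicate 1, 2 or 3 (where the adjusted p was 0.0668 to 0.126).

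Among 12 phenylpropanoid enzymes 1 rose and 0 fell. It was an aromatic amino acid lyase, T30_1_TRINITY_DN4221_c0_g1, the entry enzyme of phenylpropanoid synthesis. It had 2.84 FPKM at 30 mM and 0.0867 FPKM at 15 mM (means of 3 libraries, log2 fold change 1.70). Its untreated mean was 0.14 FPKM. It passed the filter through the 30 mM libraries alone, so no p is given for it. Rises in the list numbered 0 to 2 (without 30 mM replicate 2) with 1 library left out. Of 83 sequences for wall loosening, cellulose and pectin 3 rose and 0 fell as deposited, and 3 rose and 3 fell after quantile normalization. The rises as deposited were 3.61% of those tested, below the 4.81% of annotated sequences. The xyloglucan endotransglycosylase T15_2_TRINITY_DN10060_c0_g1, which cuts and rejoins wall polymers, had 7.51, 8.28 and 12.2 FPKM at 30 mM, against 1.37, 1.28 and 3.52 FPKM at 15 mM (log2 fold 1.80 ± 0.29 SE, adjusted p = 0.0161, and 0.0527 to 0.0646 in the fits without 30 mM replicate 3 or 15 mM replicate 1 or 2 that ended the call).

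Calls among receptors and defence proteins were nearly all rises as deposited, where 80.7% of all annotated calls were higher. Of 57 lectin and S-locus receptor sequences, proteins at the cell surface that often carry a kinase domain, 14 rose and 0 fell. The count was 12 after quantile normalization, with 1 fall, and 4 (without 15 mM replicate 1) to 13 (without 30 mM replicate 2) with 1 library left out. T30_3_TRINITY_DN52625_c0_g1 had 11.7, 8.31 and 11.8 FPKM at 30 mM, against 2.69, 1.45 and 2.63 FPKM at 15 mM (log2 fold 1.84 ± 0.20 SE, adjusted p = 0.00332). T30_1_TRINITY_DN10299_c0_g1 had 16.6, 19.1 and 10.97 FPKM at 30 mM, against 4.24, 2.95 and 3.52 FPKM at 15 mM (log2 fold 1.83 ± 0.26 SE, adjusted p = 0.0094). Both calls held with any 1 library left out.

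Of 80 NB-ARC sequences, intracellular receptors of pathogen effectors, 9 rose (11.2%) and 1 fell (1.25%), with rises of 0.54 to 1.20. Of annotated sequences 4.81% rose and 1.15% fell, so the share of falls was near that background. After quantile normalization 8 rose and 3 fell. Rises numbered 5 (without 15 mM replicate 1) to 10 (without 30 mM replicate 2) with 1 library left out. T30_3_TRINITY_DN3027_c0_g1 had 9.95, 7.41 and 8.63 FPKM at 30 mM, against 3.41, 2.87 and 3.33 FPKM at 15 mM (log2 fold 1.20 ± 0.14 SE, adjusted p = 0.00502). T30_2_TRINITY_DN299_c0_g1 had 18.6, 16.6 and 20.3 FPKM at 30 mM, against 8.80, 7.46 and 8.70 FPKM at 15 mM (log2 fold 1.06 ± 0.14 SE, adjusted p = 0.00609). It had 2.55, 3.46 and 3.30 FPKM in untreated leaves, and of the sequences named here it was the only one also called at 15 mM against untreated. The 3 doses did not overlap in it.

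Of 82 EF-hand calcium sensors and respiratory burst oxidases 12 rose and 0 fell as deposited, and 11 rose and 3 fell after quantile normalization. The share of rises was 14.6% as deposited, against 4.81% of annotated sequences. The count was 5 (without 30 mM replicate 3) to 15 (without 30 mM replicate 2) with 1 library left out. TCK_3_TRINITY_DN14861_c0_g1, which joins an EF hand to a pyridine nucleotide-disulphide oxidoreductase domain, had 24.01, 9.16 and 20.6 FPKM at 30 mM, against 1.83, 0.97 and 2.63 FPKM at 15 mM (log2 fold 2.69 ± 0.34 SE, adjusted p = 0.00615). T30_1_TRINITY_DN33263_c0_g1, with an EF-hand pair alone, had 36.7, 16.2 and 37.2 FPKM at 30 mM, against 5.36, 3.80 and 5.06 FPKM at 15 mM (log2 fold 2.35 ± 0.30 SE, adjusted p = 0.00575). Replicate 2 was the lowest library at both doses in both sequences.

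Of 69 pathogenesis-related proteins and protease inhibitors 11 rose (15.9%, against 4.81% of annotated sequences) and 0 fell, with 12 rises and 1 fall after quantile normalization. Rises numbered 6 (without 15 mM replicate 3) to 13 (without 30 mM replicate 2) with 1 library left out. Kunitz-type inhibitors, which block digestive proteases of feeding insects, gave 3 of the rises among 6 sequences, and class I chitinases, which cut the chitin of fungal walls, gave 2 among 8. The inhibitor T30_2_TRINITY_DN17589_c0_g1 had 26.8, 12.8 and 22.2 FPKM at 30 mM, against 1.48, 0.58 and 2.09 FPKM at 15 mM (log2 fold 3.17 ± 0.31 SE, adjusted p = 0.00235). The inhibitor T30_1_TRINITY_DN23892_c0_g1 had 24.99, 22.7 and 28.2 FPKM at 30 mM, against 4.06, 2.72 and 1.75 FPKM at 15 mM (log2 fold 2.81 ± 0.22 SE, adjusted p = 0.00184). Its 30 mM replicates were close to each other, and its untreated values of 2.60, 1.75 and 1.72 FPKM overlapped those at 15 mM. The class I chitinase T30_3_TRINITY_DN5838_c0_g1 had 9.35 FPKM at 30 mM and 0.897 FPKM at 15 mM (means of 3 libraries, log2 fold change 2.42, adjusted p = 0.00402).

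Calls in the type 2C phosphatase, jasmonate and salicylate lists were all rises as deposited. Of 57 type 2C protein phosphatases, a family that includes negative regulators of abscisic acid signalling, 6 rose and 0 fell (10.5%, where 4.81% of annotated sequences rose). T30_3_TRINITY_DN975_c0_g1 had 11.4, 9.83 and 10.3 FPKM at 30 mM, against 2.23, 2.26 and 1.66 FPKM at 15 mM (log2 fold 1.92 ± 0.17 SE, adjusted p = 0.00184). The list's median was 0.10 as deposited and -0.02 after quantile normalization, and rises numbered 1 (without 30 mM replicate 3 or 15 mM replicate 1 or 2) to 5 (without 30 mM replicate 2 or untreated replicate 3) with 1 library left out. Of 20 sequences for jasmonate synthesis and TIFY repressors 3 rose and 0 fell, and rises numbered 0 (without 30 mM replicate 1 or 15 mM replicate 1) to 5 (without 30 mM replicate 2) with 1 library left out. TIFY proteins repress jasmonate responses and are themselves induced by jasmonate. T15_1_TRINITY_DN11231_c0_g1, of this type, had 22.2, 12.7 and 37.4 FPKM at 30 mM, against 3.82, 5.30 and 3.51 FPKM at 15 mM (log2 fold 2.16 ± 0.34 SE, adjusted p = 0.0146), and this call did not hold without 30 mM replicate 1 or 15 mM replicate 1 (where the adjusted p was 0.0549 to 0.0575).

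Auxin response sequences had 1 rise and 2 falls among 45, all 3 from the GH3 family, which conjugates auxin or jasmonate to amino acids. T30_3_TRINITY_DN17041_c0_g1 fell, with 7.49, 8.72 and 4.74 FPKM at 30 mM, against 15.6, 15.1 and 20.4 FPKM at 15 mM (log2 fold -1.20 ± 0.20 SE, adjusted p = 0.0181), and this call did not hold without 30 mM replicate 1 or 15 mM replicate 1 or 3 (where the adjusted p was 0.0509 to 0.0575). The GH3 sequence that rose, T30_3_TRINITY_DN12909_c0_g1, had 7.90 FPKM at 30 mM and 0.197 FPKM at 15 mM (means of 3 libraries, log2 fold change 2.78, adjusted p = 0.00348). After quantile normalization the list had 1 rise and 9 falls, and falls numbered 0 (without 15 mM replicate 1) to 6 (without 30 mM replicate 2) with 1 library left out. Of 19 Aux/IAA repressors and 14 auxin response factors none was called. Among 8 salicylate regulators and methyltransferases, the NPR1-like sequence TCK_2_TRINITY_DN1887_c0_g1, of the family of salicylate receptors, rose, with 20.4, 20.1 and 18.9 FPKM at 30 mM, against 14.3, 11.6 and 14.6 FPKM at 15 mM (log2 fold 0.53 ± 0.12 SE, adjusted p = 0.047, and 0.0617 to 0.129 with any 1 of the 9 libraries left out). The list gave 0 calls after quantile normalization and 0 with any 1 library left out. No annotated sequence matched the words used for ethylene synthesis.

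Calls were fewer in protein quality control. Of 124 heat shock proteins and factors 3 rose and 1 fell as deposited, while quantile normalization gave 4 rises and 8 falls and median-of-ratios scaling 5 and 7, so the balance turned with the scaling. Without 30 mM replicate 2 there were 20 rises. The Hsp70 chaperone TCK_3_TRINITY_DN4129_c0_g1 had 76.7, 13.8 and 29.8 FPKM at 30 mM, against 5.87, 5.67 and 6.06 FPKM at 15 mM (log2 fold 2.26 ± 0.48 SE, adjusted p = 0.0414, and 0.0684 to 0.118 in the fits without 30 mM replicate 3, 15 mM replicate 1, 2 or 3 or untreated replicate 1, 2 or 3 that ended the call). The 15 mM libraries were nearly equal and the 30 mM libraries differed widely, with replicate 1 far above. A DnaJ co-chaperone, TCK_3_TRINITY_DN57855_c0_g1, fell, with 14.7, 24.5 and 18.8 FPKM at 30 mM, against 38.7, 42.3 and 44.2 FPKM at 15 mM (log2 fold -1.10 ± 0.18 SE, adjusted p = 0.0169, and 0.0534 to 0.061 in the fits without 30 mM replicate 3 or 15 mM replicate 1 or 3 that ended the call).

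Of 236 U-box and RING ubiquitin ligase sequences 15 rose and 2 fell (12 and 8 after quantile normalization). As deposited these were 6.36% and 0.847%, near the 4.81% and 1.15% of annotated sequences. Rises numbered 5 (without 15 mM replicate 1) to 15 (without 30 mM replicate 2) with 1 library left out. The 38 with a U-box gave 9 of the rises and 0 falls as deposited, and 5 rises and 1 fall after quantile normalization. T30_2_TRINITY_DN82426_c0_g1, a RING finger protein, had 6.79, 8.08 and 13.6 FPKM at 30 mM, against 1.03, 0.88 and 0.73 FPKM at 15 mM (log2 fold 2.43 ± 0.22 SE, adjusted p = 0.00198). Another RING finger protein, T15_2_TRINITY_DN3709_c0_g1, fell, with 2.91, 4.28 and 2.47 FPKM at 30 mM, against 7.85, 7.46 and 7.44 FPKM at 15 mM (log2 fold -1.05 ± 0.17 SE, adjusted p = 0.0142), and this call did not hold without 30 mM replicate 1 or 15 mM replicate 1 (where the adjusted p was 0.0544 to 0.0606). Of 32 proteasome sequences 1 rose, with a list median of 0.44 as deposited and 0.22 after quantile normalization.

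Ribosomal proteins gave few calls as deposited. Of 212, 3 rose (1.42%) and 0 fell, where 4.81% of annotated sequences rose, and the list's median was 0.44 as deposited and 0.29 after quantile normalization. Median-of-ratios scaling gave 24 rises and 0 falls, and leaving the 4 most abundant sequences out of the library sums gave 34 and 0. Rises numbered 0 (without 15 mM replicate 1) to 6 (without 30 mM replicate 2 or 3) with 1 library left out. T30_1_TRINITY_DN149_c0_g4, a ribosomal L6 sequence, had 63.6, 36.6 and 39.2 FPKM at 30 mM, against 24.1, 22.6 and 23.9 FPKM at 15 mM (log2 fold 0.91 ± 0.20 SE, adjusted p = 0.0452, and 0.0535 to 0.126 in the fits without 30 mM replicate 1 or 3, 15 mM replicate 1, 2 or 3 or untreated replicate 1, 2 or 3 that ended the call). Of 302 pentatricopeptide repeat proteins, which process organelle RNA, 1 rose and 5 fell as deposited, and 2 rose and 13 fell after quantile normalization and with median-of-ratios scaling. Falls numbered 1 to 4 (without 30 mM replicate 2) with 1 library left out. Of 62 core histone, cyclin and kinesin sequences 1 rose and 0 fell (3 and 2 after quantile normalization).

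**Figure D4:**
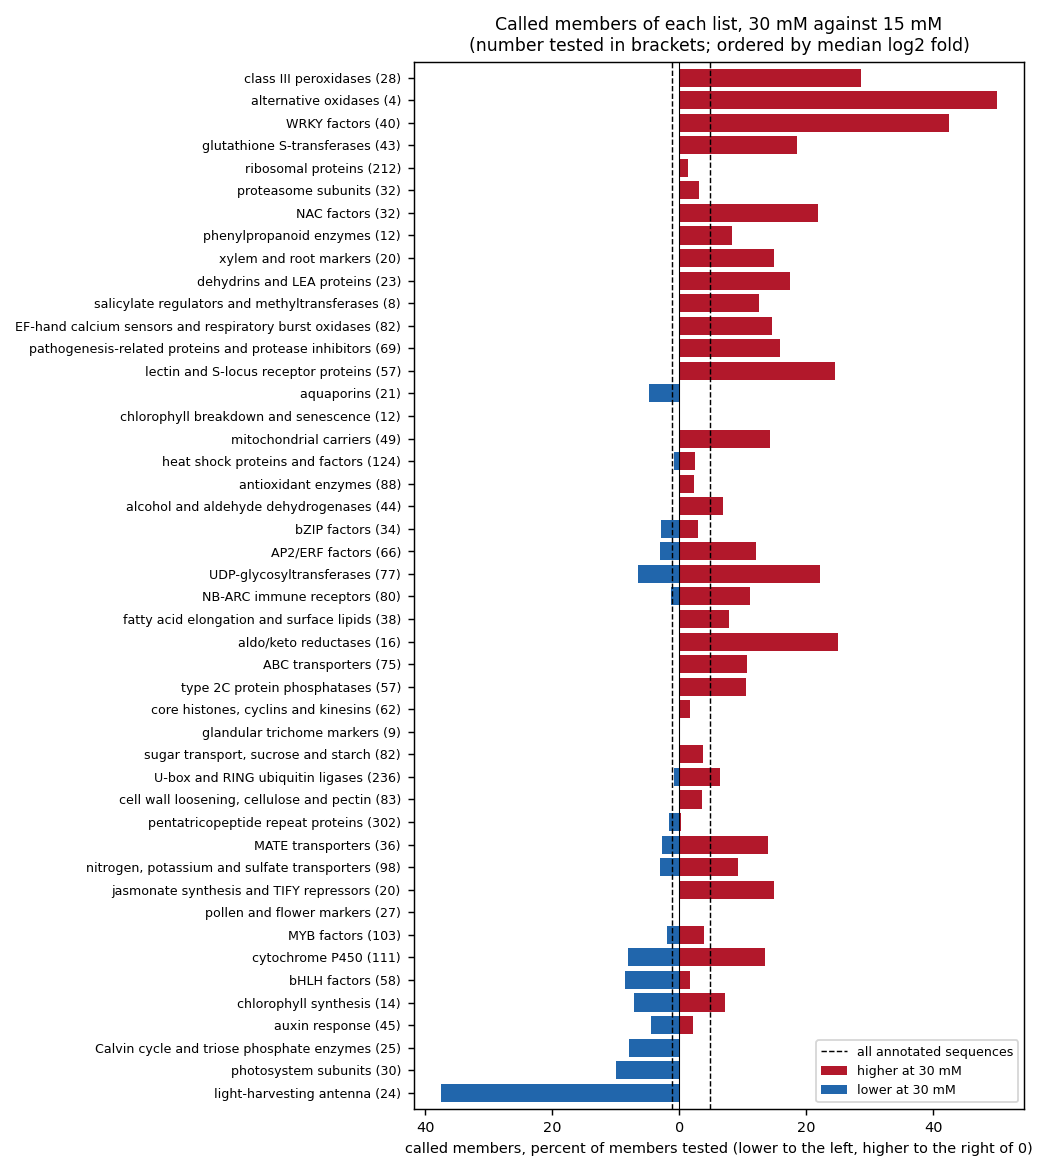
Called members of each list as a percent of its members tested, with rises at 30 mM to the right (red) and falls to the left (blue), and dashed lines at the 4.81% and 1.15% of all annotated sequences. The antenna list extends furthest to the left (9 of 24), and WRKY factors (17 of 40) and the 4 alternative oxidases (2 called) furthest to the right.

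Water and stress lists were mixed. Of 23 dehydrin and LEA sequences, which protect cells during drying, 4 rose and 0 fell as deposited, and 4 rose and 3 fell after quantile normalization. Rises numbered 2 (without 15 mM replicate 1) to 5 (without 30 mM replicate 2) with 1 library left out. The dehydrin T30_1_TRINITY_DN11202_c0_g1 had 8.05 FPKM at 30 mM and 0.263 FPKM at 15 mM (means of 3 libraries, log2 fold change 2.73, adjusted p = 0.0042). Among 21 aquaporins, water channels of the membrane, 1 fell and 0 rose as deposited, a direction that turned when the 4 most abundant sequences were left out (4 rose and 1 fell). Quantile normalization and median-of-ratios scaling each gave 2 rises and 2 falls. The member that fell was TCK_1_TRINITY_DN519_c0_g1, with 41.3, 46.1 and 30.4 FPKM at 30 mM, against 76.2, 73.2 and 86.2 FPKM at 15 mM (log2 fold -1.0 ± 0.16 SE, adjusted p = 0.0159, and 0.0603 in the fit without 15 mM replicate 1 that ended the call), while the list's median was 0.30.

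Sugar transport, sucrose and starch sequences had 3 rises and 0 falls among 82, a share below the annotated background. The sugar transporter T15_3_TRINITY_DN9268_c0_g1 had 37.1, 19.8 and 40.97 FPKM at 30 mM, against 7.51, 5.83 and 6.20 FPKM at 15 mM (log2 fold 2.10 ± 0.25 SE, adjusted p = 0.00495). The sucrose synthase T15_3_TRINITY_DN3657_c0_g1, which splits sucrose for use in the cell, had 36.3, 17.3 and 25.6 FPKM at 30 mM, against 6.70, 4.20 and 8.52 FPKM at 15 mM (log2 fold 1.86 ± 0.28 SE, adjusted p = 0.0122). The list gave 3 rises with any 1 library left out.

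Transporters of nitrogen, potassium and sulfate moved in both directions, with 9 rises and 3 falls among 98 as deposited and 9 of each after quantile normalization. Rises numbered 2 (without 30 mM replicate 1 or 3 or 15 mM replicate 1) to 11 (without 30 mM replicate 2) with 1 library left out. Within the POT family of nitrate and peptide transporters, TCK_2_TRINITY_DN5804_c0_g1 rose, with 27.2, 19.5 and 29.3 FPKM at 30 mM, against 7.95, 4.84 and 8.60 FPKM at 15 mM (log2 fold 1.71 ± 0.21 SE, adjusted p = 0.00566). TCK_3_TRINITY_DN340_c0_g1 of the same family fell, with 4.70, 4.68 and 3.07 FPKM at 30 mM, against 10.5, 9.96 and 14.6 FPKM at 15 mM (log2 fold -1.30 ± 0.18 SE, adjusted p = 0.0087). Of 4 ammonium transporters 2 rose and 1 fell. The one that fell, T30_1_TRINITY_DN46563_c0_g1, had 3.01, 3.69 and 2.35 FPKM at 30 mM, against 9.56, 6.90 and 9.42 FPKM at 15 mM (log2 fold -1.26 ± 0.17 SE, adjusted p = 0.00797). A sulfate permease, T15_1_TRINITY_DN7934_c0_g1, had 0.407 FPKM at 30 mM and 2.12 FPKM at 15 mM (means of 3 libraries, log2 fold change -1.16, adjusted p = 0.00722). Of 38 sequences for fatty acid elongation and surface lipids 3 rose (7.89%, against 4.81% of annotated sequences) and 0 fell, and none of the 3 averaged 5 FPKM over the 6 libraries. Their number was 1 to 2 with 1 library left out.

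Ranked by median log2 fold change among the 348 Pfam families, the peroxidases were followed by the domain found beside AAA ATPases at 0.898 (5 of 12 rose), WRKY at 0.801, Hsp70 at 0.676 (1 of 17 rose) and an EF-hand pair at 0.664. The C-terminal glutathione S-transferase domain at 0.615, VQ at 0.568 and the N-terminal glutathione S-transferase domain at 0.545 completed the 8 highest. At the other end stood the antenna family at -1.061, the leucine zipper of homeobox proteins at -0.505, B-box zinc fingers at -0.422 and the membrane transport family of auxin efflux carriers at -0.339. CCT at -0.306, the HOX-associated domain at -0.287, NPH3 at -0.263 and the homeodomain at -0.259 followed. Of the 19 zipper sequences 1 rose and 3 fell, and of the 13 B-box sequences 2 fell. The CCT and NPH3 families, with 15 and 22 sequences, had 2 falls each. These medians describe families that were not tested as sets.

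Markers of other cell types were measured beside these lists. The 20 tested xylem and root sequences, multicopper oxidases and related proteins, had 3 rises and 0 falls (rises numbered 1 to 3 (without untreated replicate 2) with 1 library left out). Sums of these marker lists include members that the filter removed. Over 24 xylem and root sequences the sum was 54.8 to 62.5 FPKM at 30 mM, against 33.2 to 51.0 FPKM at 15 mM. The sum was 30.6 to 36.5 FPKM in untreated leaves. The multicopper oxidase TCK_1_TRINITY_DN7778_c0_g1, of the family that includes laccases, had 15.4, 8.51 and 11.3 FPKM at 30 mM, against 4.20, 4.22 and 6.01 FPKM at 15 mM (log2 fold 1.11 ± 0.23 SE, adjusted p = 0.0407), and this call did not hold without 30 mM replicate 1 or 3, 15 mM replicate 1, 2 or 3 or untreated replicate 1 or 3 (where the adjusted p was 0.0548 to 0.134). Peroxidases and the phenylpropanoid lyase rose in the same libraries, and the part that the share of cell types plays in those results was not tested. The 9 tested terpene synthase sequences used for glandular trichomes had 0 calls. Over 14 such sequences the sum was 8.62 to 9.55 FPKM at 30 mM, against 5.72 to 7.36 FPKM at 15 mM, with no overlap. The 27 tested pollen and flower sequences had 0 calls. Over 29 such sequences the sums were 59.8 to 75.4 FPKM at 30 mM and 62.8 to 82.9 FPKM at 15 mM. No member of these 3 lists was at 0 in all 9 libraries. Antenna sequences, the defining leaf transcripts here, were abundant at every dose.

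Sequences outside the annotation were listed at 0 throughout one dose about as often in either direction. Of those tested, 186 were above 0 in all 3 libraries at 30 mM and at 0 in all 3 at 15 mM, and 187 the other way round. Called rises at 0 in every 15 mM library numbered 66, and called falls at 0 in every 30 mM library 46. Of the 66, 45 were also at 0 in all untreated libraries and were thus kept through the 30 mM libraries alone. The largest of the rises, T30_2_TRINITY_DN14566_c0_g1, had 25.1, 15.1 and 20.6 FPKM at 30 mM, against 0, 0 and 0 FPKM at 15 mM and was listed at 0 in all untreated libraries. T30_1_TRINITY_DN57149_c0_g1 had 16.2, 15.9 and 5.84 FPKM at 30 mM, against 0, 0 and 0 FPKM at 15 mM, again with 0 in all untreated libraries. Both were kept through the 30 mM libraries alone, so no p is given for them. No fold is given against a group listed at 0. T30_1_TRINITY_DN21874_c0_g1 had 9.09, 26.6 and 4.93 FPKM at 30 mM, against 0, 0 and 0 FPKM at 15 mM (adjusted p = 0.0407), was found in 1 untreated library at 5.39 FPKM, and lost its call without 30 mM replicate 1, 2 or 3, 15 mM replicate 1, 2 or 3 or untreated replicate 2 or 3 (where the adjusted p was 0.052 to 0.115). Of the annotated rises, 3 were at 0 in all libraries at 15 mM.

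Of the annotated falls, 0 were at 0 in all libraries at 30 mM. Outside the annotation, T15_1_TRINITY_DN410_c0_g2 had 0, 0.08 and 0 FPKM at 30 mM, against 24.1, 10.7 and 25.9 FPKM at 15 mM (adjusted p = 0.0349), and 0, 0 and 11.5 FPKM in untreated leaves, so presence was uneven within the untreated group. T15_1_TRINITY_DN23180_c0_g1 had 0, 0 and 0 FPKM at 30 mM, against 7.76, 19.4 and 8.44 FPKM at 15 mM (adjusted p = 0.0450). Leaving out any 1 of the 6 libraries of the comparison ended both calls. T15_3_TRINITY_DN88180_c0_g1 was lower at 30 mM without reaching 0, with 2.07, 2.38 and 1.32 FPKM at 30 mM, against 7.67, 6.41 and 11.3 FPKM at 15 mM (log2 fold -1.68 ± 0.23 SE, adjusted p = 0.00846), and its untreated values of 2.61, 3.0 and 4.16 FPKM lay near those at 30 mM. Its call held with any 1 library left out.

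**Figure D5:**
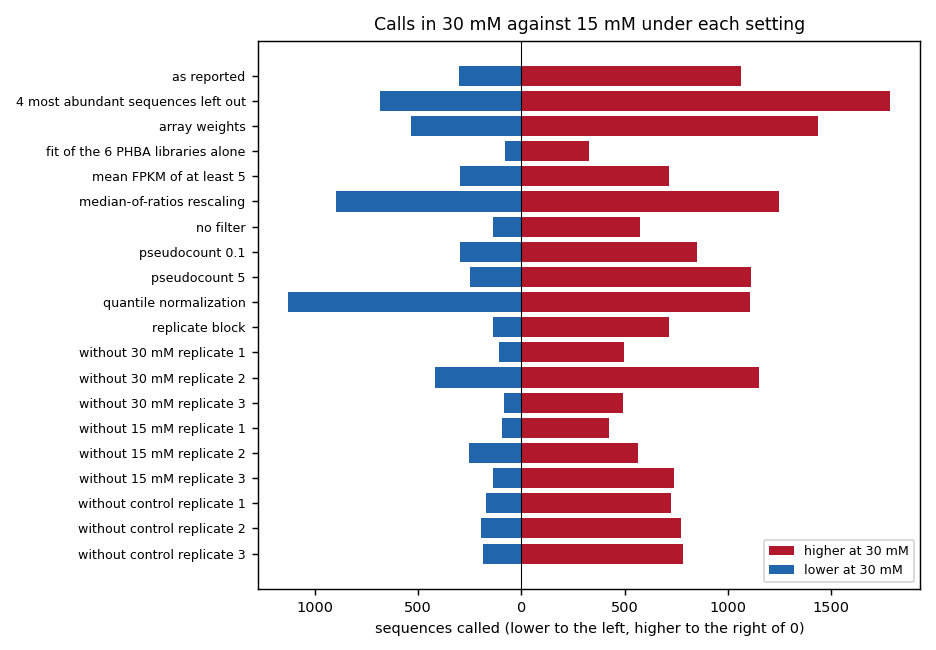
Sequences called in 30 mM against 15 mM under each setting, with rises to the right (red) and falls to the left (blue). As reported there were 1066 rises and 305 falls; the fit of the 6 PHBA libraries alone made the fewest calls, and the 2 sides were nearly equal after quantile normalization.

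Of the 97 called sequences picked by the naming rule, 44 kept their call with any 1 of the 9 libraries left out and 53 lost it without at least 1. The doses did not overlap in any of these calls, so leaving out a library, or a change of pseudocount or filter, could not turn a direction. Under the rescalings, which could turn it, none changed direction.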

How the data were processed

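The authors deposited FPKM values for 82125 assembled sequences in 9 leaf libraries, with 2 decimals; these are the unit used, per the file headers. Per the submitters' processing notes, Trimmomatic 0.36, FastQC 0.11.5, RSEM and DESeq were used, with no role stated; assembly steps and mapper: not given in the sources used here. The deposited annotation holds family descriptions (15048 lines for 14831 sequences, 14720 of them in the FPKM table) and no measured values. Its KEGG column names orthologs and no pathways, so families were ranked by Pfam only. All value columns were used.

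Sequences with 0.5 FPKM or more in 3 or more of the 9 libraries were kept (44203). With limma 3.58.1 in R 4.3.3, log2(FPKM + 1) of the 3 doses was fitted in 1 model with 6 residual degrees of freedom and trended empirical Bayes moderation. The contrast was 30 mM minus 15 mM, two-sided, and every adjusted p is limma's after Benjamini-Hochberg adjustment over all kept sequences, called under 0.05. Every fold change is on the log2(FPKM + 1) scale, which understates changes of low sequences. FPKM give no depth, so no count model or counting interval was used. On data simulated from these libraries with 44203 sequences, 35% of 100 changes of log2 1 and 86% of 100 changes of log2 2 were recovered in this contrast, with 5 false calls. The changes were placed only in sequences with a mean log2(FPKM + 1) at or above that of 5 FPKM. Noise was drawn separately for each value, without shifts shared by a whole library. The recovery rates thus do not cover lower sequences, and the false calls do not cover such shifts.

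Named sequences were chosen by a rule: the 15 largest annotated rises and falls among calls averaging at least 5 FPKM over the 6 libraries, without overlap and with a described domain; up to 2 rises and 2 falls of each of 47 lists at that level, or the smallest p where none was called; 3 rises and 3 falls outside the annotation; and the 8 Pfam families at each end of the medians. Some list members given by group means fall outside that rule and were chosen after their values were seen. Members and lists were chosen with earlier results of these data known, and the words that define the lists were narrowed after the annotation text was read. Kinases of ribosomal protein S6, matched through KEGG text, were taken out of the ribosomal list after their values were seen. The lists matched sequences in 46 of 47 cases. Alternatives were other scalings, pseudocounts of 0.1 and 5, filters, array weights, a fit of 6 libraries, a replicate block and leaving out each library. Figures were drawn with matplotlib 3.10.9.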

Additional observations from a re-analysis of the deposited data

How the results depend on the processing

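The 1371 calls became 2472 with the 4 most abundant sequences left out of the library sums (1350 of the 1371 among them), 2145 with median-of-ratios rescaling (1250) and 2236 with quantile normalization (1225). They became 711 with no filter on low values (671 shared), where 82125 sequences entered both the adjustment and the trended moderation. With a fit of the 6 PHBA libraries alone, which has fewer samples, they became 403 (379 shared). The causes of these drops were not tested. With 1 library left out the count was 518 to 1572. It stayed within 1.5 times with array weights (1970), pseudocounts of 0.1 (1145) and 5 (1358), and a minimum mean of 5 FPKM (1010 calls of fewer sequences). The cause of the shifts between scalings was not tested. Replicate numbers are shared across doses in the labels, but same-numbered libraries did not deviate together (correlations of -0.0128 to 0.0269 for 9 pairs, against -0.0272 to 0.0255 for 18 pairs with different numbers). With the number as a replicate block 851 sequences were called, 804 of them among the 1371, and 68 of the 97 named calls stayed. Of the 97 named calls 92 stayed with median-of-ratios rescaling, 90 with quantile normalization, 86 with a pseudocount of 5, 53 with no filter and 44 with the fit of 6 libraries. With either rescaling 0 changed sign. The pseudocount, the filter and the fit of 6 libraries could not change the sign of calls without overlap. FPKM without read counts leave the counting error of low sequences unknown.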
